A study of Homo sapiens with 8 samples.

Results

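Translation initiation factors load the initiator tRNA and the ribosome onto an mRNA, and their transcripts were followed here in MRC5 cells, a finite strain of human diploid lung fibroblasts. The gene set held every gene whose only array symbol starts with EIF and a digit from 1 to 6, including the EIF2AK kinases and the EIF4E-binding proteins, each read from its brightest probe set. It came to 37 of the 7713 genes with a symbol of their own on the 12 h arrays and 43 of the 11963 on the 6 h arrays. Cells received 10 µM 8-oxoguanine, an oxidised form of the base guanine, or were mock treated with solvent. At 6 h there was 1 treated and 1 mock array of a larger type, and at 12 h there were 3 treated and 3 mock arrays of a smaller type. The 12 h arrays of a group are labelled as technical replicates by extract, so p-values reflect no more than the spread among these extracts, which may be technical. The time label was followed, although the treatment protocol names 6 h for every sample. All cells were of the same fibroblast strain, and each time was compared with its own mock only.

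Initiation begins when eIF2 carries the initiator tRNA to the small ribosomal subunit, where eIF1, eIF1A, eIF3 and eIF5 join it, while the eIF4 factors bind the cap and unwind the start of the mRNA. Phosphorylation of eIF2 by the EIF2AK kinases blocks its recycling by eIF2B, lowers general translation and favours the transcription factor ATF4. A second control runs through mTORC1, which releases eIF4E from the EIF4E-binding proteins and supports the translation of mRNAs that begin with a C and a run of pyrimidines, the terminal oligopyrimidine (TOP) mRNAs, among them those of many ribosomal proteins.

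At 12 h, 6 of 35 tested members rose and 1 fell after 8-oxoguanine. Those that rose were the start codon factors EIF1B and EIF5, the eIF3 subunits EIF3E, EIF3F and EIF3H, and the helicase cofactor EIF4B. The transcript of the kinase EIF2AK3, also called PERK, fell. The rises ran from 0.32 to 0.61 on the log2 scale, and the fall was 0.59. The test was limma on log2 signal with Benjamini-Hochberg adjustment over all 5248 probe sets tested, at an adjusted p of 0.05. Over all of them 13.2% were called, 6.59% higher and 6.65% lower, against 7 of 35 members. The background share called higher grew with signal up to 8000 and was lower above it. By mean signal, 1 of 16 members below 1000 rose, beside 5.04% of all probe sets there, and 2 of 14 from 1000 to 4000, beside 11.1%. From 4000 to 8000 it was 3 of 4, beside 14.5%, and from 8000 up 0 of 1, beside 4.95%. Across the 35 members the log2 fold change and the mean signal had a Spearman rho of 0.45, and over all probe sets tested -0.02. The part of signal in the members' count was not tested. EIF1B, EIF3E, EIF3F and EIF4B were called in all 14 alternative settings tried, whereas EIF5, EIF3H and EIF2AK3 were not. Without treated array 1, or without treated array 2, only those 4 were called and EIF2AK3 was not.

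**Figure D1:**
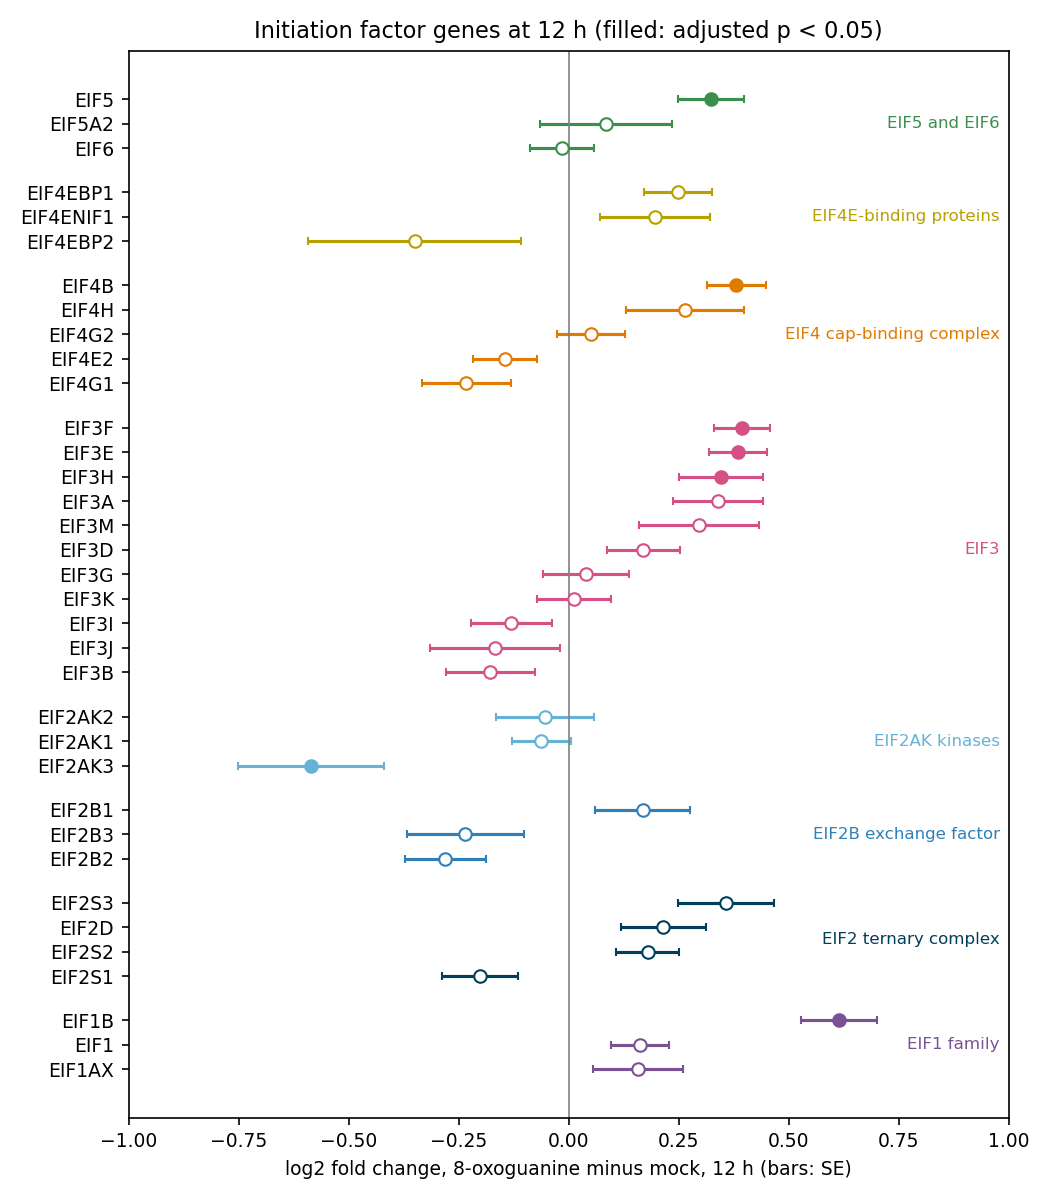
Log2 fold change, 8-oxoguanine minus mock, of the 35 tested members at 12 h, with bars of 1 standard error and 3 arrays in each group. Filled points passed the adjusted p of 0.05: EIF1B at 0.61 is the highest and EIF2AK3 at -0.59 the lowest.

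Over the 35 members, 22 lay above 0 and 13 below, and the median log2 fold change was 0.16, beside 0.0072 and 51.4% above 0 over all probe sets tested. The treated and mock arrays did not overlap for 14 members that were higher and 4 that were lower. The same held for 17.4% and 16.5% of all probe sets. Another 2 genes were too dim to test. The cap-binding protein EIF4E had a single probe set at 12 h. On it the treated arrays read 90.5, 91.2 and 49.1 and the mock arrays 87.7, 58.2 and 85.8, below the signal of 93.9 set as the limit. The other was EIF1AY, a Y-linked gene whose level is not given.

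The sequence around each RefSeq start site is shown for the members with a TOP-like start, for the other called members with an entry, and for the eIF3 subunits below 0 at 12 h (EIF3B, EIF3I and EIF3J), the last chosen after their values were seen. Each line gives 15 bases before the start and 15 from it on, 5′ to 3′, from RefSeq on GRCh38.p14, and capitals mark a run of pyrimidines that opens with C at the start itself. A start was called TOP-like when at least 4 pyrimidines followed the C, a class looked at after the 12 h values had been seen.
EIF3F, chr11:7987322-7987351, plus strand: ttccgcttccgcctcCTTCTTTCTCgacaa
EIF4B, chr12:53006441-53006470, plus strand: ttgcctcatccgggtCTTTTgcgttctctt
EIF2S3, chrX:24054941-24054970, plus strand: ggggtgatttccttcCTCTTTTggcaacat
EIF3M, chr11:32583816-32583845, plus strand: gcgcggcccagttccCTTTTCCggtcggcg
EIF2D, chr1:206612451-206612480, minus strand: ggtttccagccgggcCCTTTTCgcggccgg
EIF3D, chr22:36529152-36529181, minus strand: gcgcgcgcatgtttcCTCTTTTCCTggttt
EIF3K, chr19:38619173-38619202, plus strand: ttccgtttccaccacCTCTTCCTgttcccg
EIF1B, chr3:40309692-40309721, plus strand: tcggccattttgtgcgagaagccgcagcgc
EIF5, first start, chr14:103334222-103334251, plus strand: gcggcggcgttgttcagtcagagcgagaac
EIF5, second start, chr14:103334873-103334902, plus strand: atcccggcacccctcggccgtgtgtcgctt
EIF3B, chr7:2354812-2354841, plus strand: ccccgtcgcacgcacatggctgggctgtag
EIF3I, chr1:32222392-32222421, plus strand: accttttccggtcttactcacgttgcggcc
EIF3J, chr15:44537132-44537161, plus strand: cacctccgccgtgctaactcctcgctagct
EIF2AK3, chr2:88627450-88627479, minus strand: ggcgatgtccgagataggctgtcactcagg

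The whole arrays bear on these values as follows. Array medians ran from 143 to 165, and the mean signal with 2% of probe sets trimmed at each end was 499.9 on every array, so the deposited values had been scaled to a common level. The actin control, read at its 3′ and 5′ ends to gauge RNA degradation, gave 3′ to 5′ ratios of 1.03, 1.07 and 0.999 with 8-oxoguanine and 0.995, 0.889 and 0.946 with mock treatment at 12 h, which do not overlap. The GAPDH ratios of these arrays ran from 0.779 to 0.843 and overlapped between the groups. The part of this RNA quality measure in the results was not tested. All 10 fibroblast markers on the 12 h arrays were above the limit, and 4 of them rose (LUM, POSTN, PDGFRA and PDGFRB, by 0.30 to 1.07). The summed signal of the 6 epithelial markers was 294 to 352 on the treated arrays and 496 to 524 on the mock arrays, with EPCAM, CDH1, KRT14 and KRT5 below the limit and KRT19 lower by 1.27 on the log2 scale. SFTPC, the lung epithelial marker, was above the limit, at 141 to 151 with treatment and 94.4 to 160.1 without (0.22, limma adjusted p = 0.57). Of the endothelial markers CDH5, VWF, KDR and TEK were below the limit, and PECAM1 was above it at 94.9 to 148 (-0.26, limma adjusted p = 0.47). Of the blood markers PTPRC and CD14 were below the limit, CD3E ranged from 59.1 to 163 (0.22, limma adjusted p = 0.75) and HBB from 206 to 242 (-0.04, limma adjusted p = 0.88). Of the smooth muscle markers SMTN fell, while MYH11 and DES were below the limit. The part of these markers in the results was not tested, and in bulk samples fewer cells of a type and less RNA per cell cannot be told apart.

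The EIF1 family and EIF5 set the accuracy of start codon choice. EIF1B, a close relative of EIF1, had signals of 982, 1031 and 977 in treated cells and 649, 601 and 707 in mock cells. Every treated array lay above every mock array, a rise of 0.61 ± 0.087 (SE, n = 3 against 3; limma adjusted p = 0.0019), or 1.53-fold. EIF1 itself, which holds the scanning ribosome open until a start codon is met, read 11244, 10928 and 11646 against 9749, 10204 and 10288, higher on all treated arrays by 0.16 ± 0.066 without passing the test (limma adjusted p = 0.14). EIF1AX, which encodes eIF1A, was at 0.16 ± 0.10 (limma adjusted p = 0.36), also without overlap.

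EIF5 makes eIF2 hydrolyse its GTP once the start codon is found. Its signals were 1343, 1319 and 1249 after 8-oxoguanine and 989, 1051 and 1088 after solvent. The groups did not overlap, and the rise was 0.32 ± 0.075 (SE; limma adjusted p = 0.020). The call was lost without treated array 1 (0.30, adjusted p = 0.092), treated array 2 (0.31, 0.081) or mock array 1 (0.29, 0.069) in limma. EIF5A2, a form of the hypusine-bearing factor eIF5A, was at 0.08 ± 0.15 (limma adjusted p = 0.78), and EIF6, which keeps the ribosomal subunits apart, was at -0.02 ± 0.074 (limma adjusted p = 0.92).

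In the eIF2 group 10 genes were tested, of which none rose and EIF2AK3 fell, with a median of -0.06. At an unadjusted p under 0.05 in limma, 2 of the 10 were higher and 3 lower. Over all 5248 probe sets tested, EIF4G1 ranked 1472 at an unadjusted limma p of 0.047. At least 1472 probe sets therefore lay under 0.05, in either direction. The counts at this threshold in the other groups and lists stand beside the same background. Among the subunits that carry the initiator tRNA, EIF2S3, the GTP-binding gamma subunit, read 918, 849 and 789 with 8-oxoguanine and 629.6, 604 and 769.8 with mock treatment. The treated arrays were the higher ones without overlap, by 0.36 ± 0.11 (SE; limma adjusted p = 0.058), and the gene was called without mock array 3 (0.46, limma adjusted p = 0.028). EIF2S1, the alpha subunit that the kinases phosphorylate, went the other way, with 756, 872 and 743 against 899, 926 and 897. All its treated arrays lay below the mock arrays, by -0.20 with a 95% interval from -0.40 to -0.0091 (limma adjusted p = 0.16). EIF2S2, the beta subunit, was at 0.18 and EIF2D, which can place tRNA on the ribosome without eIF2, at 0.22, and neither passed.

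The exchange factor eIF2B, which reloads eIF2 with GTP, was covered by 3 subunits, none of which passed the limma test, and 1 of which had an unadjusted p under 0.05. That was EIF2B2, with signals of 488, 523 and 549.6 in treated cells and 589, 659.8 and 646 in mock cells. Its groups did not overlap, at -0.28 ± 0.093 (SE; limma adjusted p = 0.075). EIF2B3 was at -0.23 ± 0.13 and EIF2B1 at 0.17 ± 0.11, and the groups overlapped for both. Without mock array 2 EIF2B1 was at 0.06, and EIF2B3 was at -0.12 without mock array 3 and -0.14 without treated array 2.

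The eIF2 kinases among the members answer different stresses. EIF2AK3 answers unfolded protein in the endoplasmic reticulum, EIF2AK2 (PKR) double-stranded RNA, and EIF2AK1 (HRI) a lack of haem. The kinase EIF2AK4 was not among the members at either time. EIF2AK3 had signals of 143, 168 and 141 after 8-oxoguanine and 260.3, 227 and 193 after solvent. It was lower on each treated array, by -0.59 ± 0.17 (SE; limma adjusted p = 0.046). The call was lost without treated array 1 (adjusted p = 0.14), treated array 2 (0.071), treated array 3 (0.097), mock array 1 (0.14) or mock array 2 (0.089) in limma, with log2 fold changes of -0.48 to -0.67. EIF2AK1 at -0.06 ± 0.068 and EIF2AK2 at -0.05 ± 0.11 did not pass (limma adjusted p = 0.61 and 0.81). Their 95% intervals ran from -0.214 to 0.09 and from -0.30 to 0.20. That of EIF2AK3 ran from -0.96 to -0.213 and overlaps both, that of EIF2AK1 barely. The difference between the kinases was not tested.

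**Figure D2:**
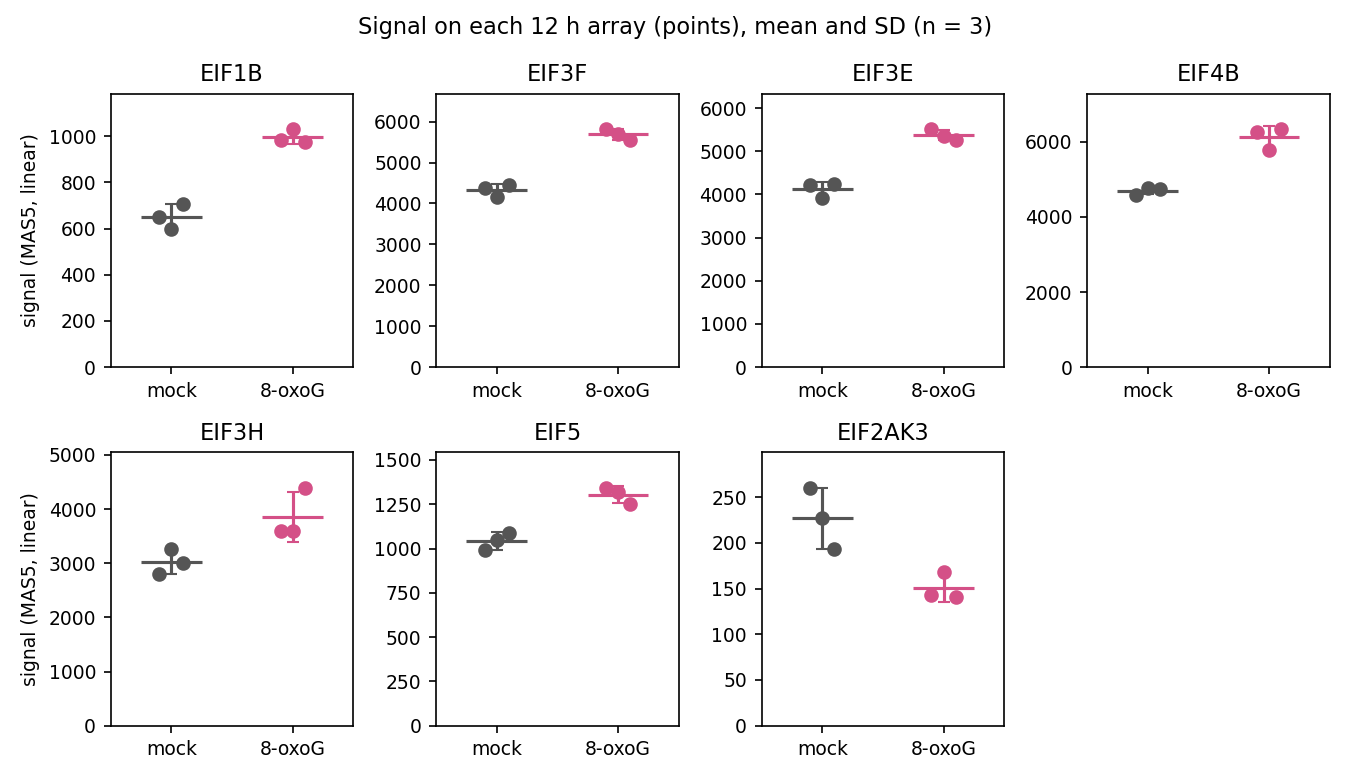
Deposited signal, on a linear scale from 0, of the 7 called members on each 12 h array, with the mean and SD of 3 arrays as lines. All treated arrays lie above all mock arrays for EIF1B, EIF3F, EIF3E, EIF4B, EIF3H and EIF5, and below them for EIF2AK3.

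The eIF3 complex, the large scaffold that joins the small subunit to the mRNA and to eIF4G, was covered by 11 tested subunits, of which 3 rose, none fell and 8 did not pass. At an unadjusted p under 0.05 in limma, 4 were higher and 0 lower. The median was 0.17. EIF3F had signals of 5814, 5692 and 5551 with 8-oxoguanine and 4385, 4164 and 4439.8 with mock treatment. All treated arrays lay above the mock arrays, a rise of 0.39 ± 0.064 (SE; limma adjusted p = 0.0040). EIF3E, known as INT6, read 5512, 5353 and 5271 against 4209, 3919.9 and 4235, again without overlap, and rose by 0.38 ± 0.065 (limma adjusted p = 0.0049).

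EIF3H read 3591, 3593 and 4395 in treated cells and 2804, 3271 and 3010.1 in mock cells. Treated array 3 stood above the other two, and the groups did not overlap. The rise was 0.35 ± 0.096 (SE; limma adjusted p = 0.043), and it was lost without treated array 1 (adjusted p = 0.069), 2 (0.068) or 3 (0.084), or mock array 1 (0.13) or 3 (0.10), with log2 fold changes of 0.25 to 0.40. EIF3A, the largest subunit, read 1524, 1692 and 1354 against 1342, 1139 and 1129, just apart, at 0.34 ± 0.10 (limma adjusted p = 0.056). It was called without treated array 3 (0.42, limma adjusted p = 0.034), without mock array 1 (0.42, 0.040) and with the stricter filter on dim probe sets (0.045).

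At the low end, EIF3B, which binds EIF3G and EIF3I, read 585, 633 and 547 after 8-oxoguanine and 740.3, 635 and 626 after solvent. The groups overlapped, at -0.18 ± 0.10 (SE; limma adjusted p = 0.28). EIF3I, a beta-propeller subunit, was at -0.13 and the loosely bound EIF3J at -0.17. EIF3G was at 0.04, EIF3D, a cap-binding subunit, at 0.17, and EIF3M at 0.30, and none of these passed.

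Ordering the subunits by their place in the complex, which was done after the values had been seen, gave a split. Subunits with PCI or MPN domains form the core of the scaffold. It was covered only in part at 12 h, as EIF3C and EIF3L were not among the members. The core subunits tested were EIF3A, EIF3E, EIF3F, EIF3H, EIF3K and EIF3M. All 6 lay above 0, with a median of 0.34, and they hold the 3 that rose. Of the others, EIF3B, EIF3D, EIF3G, EIF3I and EIF3J, 2 of 5 lay above 0, with a median of -0.13. That median came to -0.07 without treated array 1 or 3, and to -0.06 without mock array 1 or 3, and 1 of 5 lay above 0 without mock array 1 or 2. The weakest core subunit was EIF3K at 0.01, which turned below 0 in 5 of 14 alternatives. Its other probe set on the same arrays was at 0.27 ± 0.10 (SE; limma adjusted p = 0.11). At 6 h the order of the medians was the other way round: 5 of 7 core subunits lay above 0, with a median of 0.20, and 4 of 5 others, with a median of 0.29. No test of this split was made.

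The eIF4 group, which includes the EIF4E-binding proteins, gave 1 rise among 8 tested genes. Its median was 0.12, and 0.03 without mock array 2 and 0.06 without treated array 2. Apart, the 5 tested genes of the cap-binding complex had a median of 0.05 and the 3 EIF4E-binding proteins of 0.20. Of the helicase genes, EIF4A1 and EIF4A2 were not among the members at either time. EIF4B, which stimulates the unwinding helicase, had signals of 6261, 5777 and 6333 with 8-oxoguanine and 4591, 4769 and 4737 with mock treatment. The groups were far apart for their spread, a rise of 0.38 ± 0.067 (SE; limma adjusted p = 0.0057). Its relative EIF4H was at 0.26 ± 0.13 (limma adjusted p = 0.23), without overlap, and mock array 2 was the lowest of its arrays. Without that array it was at 0.08. EIF4G1, the scaffold that bridges the cap and eIF3, read 1571, 1643 and 1543 against 2054, 1574 and 1997. Mock array 2 fell among the treated arrays, and the value was -0.23 ± 0.10 (limma adjusted p = 0.17). Without mock array 2 it was -0.35 and called (limma adjusted p = 0.014).

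EIF4E2, a cap-binding protein that represses translation, was at -0.15 and EIF4G2, a scaffold that does not bind eIF4E, at 0.05, and neither passed. The proteins that bind eIF4E and keep it from the cap complex gave no call, with 1 of 3 at an unadjusted p under 0.05 in limma. EIF4EBP1 read 1200.1, 1154 and 1193 in treated cells and 937, 1065 and 988 in mock cells. It was higher on every treated array, by 0.25 ± 0.077 (SE; limma adjusted p = 0.060), and was called without mock array 2 (0.30, limma adjusted p = 0.035). EIF4EBP2 read 200.2, 323 and 150.1 against 266, 253 and 298. Its treated arrays scattered on both sides of the mock arrays, at -0.35 ± 0.24 (limma adjusted p = 0.39), and the value was -0.65 without treated array 2 and -0.10 without treated array 3. EIF4ENIF1, which carries eIF4E into the nucleus, was at 0.20 ± 0.13 (limma adjusted p = 0.35), and at 0.08 without treated array 2.

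Among genes around the initiation factors, the eIF2 phosphatase and ATF4 arm had 8 tested members, of which 1 rose and none fell, with 3 higher and 1 lower at an unadjusted p under 0.05 in limma. ATF4, translated when eIF2 is phosphorylated, read 4445, 4240.1 and 5558 after 8-oxoguanine and 2857, 3597 and 3297 after solvent. The groups did not overlap, and the rise was 0.54 ± 0.12 (SE; limma adjusted p = 0.014). PPP1R15A, which guides the phosphatase to eIF2, was at 0.24 ± 0.10 and did not pass (limma adjusted p = 0.16).

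Of 16 tested genes of mTORC1 and the kinases around the cap complex, PRKAB1, a subunit of the AMP-activated kinase, rose by 0.50 ± 0.11 (SE; limma adjusted p = 0.017). That call was lost without treated array 1 or 2 (limma adjusted p = 0.058 and 0.067). RRAGA, a GTPase that brings mTORC1 to the lysosome, read 2108, 2123 and 2238 with 8-oxoguanine and 3021, 3265 and 2865 with mock treatment. It was lower on every treated array, by -0.50 ± 0.072 (limma adjusted p = 0.0023), and was called in all 14 alternatives. In the list of poly(A)-binding and cap partners, 1 of 10 rose, PAIP1, a partner of the poly(A)-binding protein, by 0.51 ± 0.14 (limma adjusted p = 0.043). It lost its call when any 1 of the 6 arrays was left out (limma adjusted p from 0.065 to 0.15). Of 11 elongation, hypusine and termination factors 0 passed limma's adjusted threshold, with 2 higher and 0 lower at an unadjusted p under 0.05, and their median was 0.05. The medians of the other lists were 0.16, 0.06 and 0.15 in the order given.

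Set against their start sequences, all 7 tested members with a TOP-like start lay above 0 at 12 h, from EIF3K at 0.01 to EIF3F at 0.39, with a median of 0.30. EIF3F and EIF4B are the called ones. Of the 21 tested members with a RefSeq entry and another start, 9 lay above 0, with a median of -0.05. EIF1B and EIF5 rose and EIF2AK3 fell among them. With EIF3K below 0, the count is 6 of 7 after median centring and without treated array 2, treated array 3, mock array 1 or mock array 3. Outside the initiation factors, 63.9% of 324 genes with a TOP-like start lay above 0 and 11.1% were called higher. Of 3559 other genes 49.5% lay above 0 and 5.84% were called higher. The medians were 0.09 and -0.0046. This is a description of start annotation beside transcript level, and translation was not measured.

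**Figure D3:**
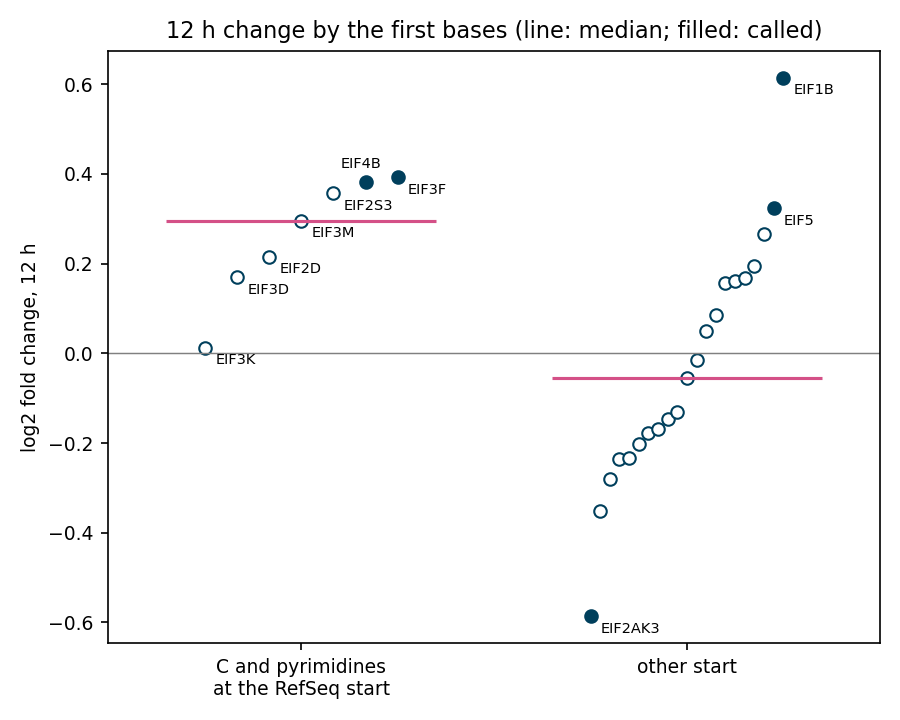
Log2 fold change at 12 h of the members with a RefSeq start entry, split by a C followed by at least 4 pyrimidines at the start (7 members) or another start (21 members). The lines are the medians, 0.30 and -0.05, and filled points were called.

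RefSeq entries were found for 34 of the 42 members other than EIF1AY, in 46 windows of 250 bases before to 50 after a start. EIF2AK1, EIF2S2, EIF3A, EIF3E, EIF3G, EIF3H, EIF3L and EIF4EBP1 are not listed. A TOP-like start was present in 7 of the 46 windows, or 15.2%, and in 4.07% of all 35116 windows of this length. The E-box CACGTG, a palindrome bound by MYC and related factors, was found in 11 of 46 windows, or 23.9%, against 7.26% of all. The ATF4-type element TGATGCAA, its looser form TGATGNAAN, which includes it, and the cAMP response element TGACGTCA were searched on both strands and matched none of the 46, against 0.866%, 3.61% and 1.85% of all windows. A match is a match of letters only.

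Of the members that rose, EIF1B, EIF3F and EIF4B have an E-box before their start. It is shown in capitals in its surroundings, 5′ to 3′ on the gene's strand, from RefSeq on GRCh38.p14.
EIF1B, chr3:40309637-40309674, plus strand: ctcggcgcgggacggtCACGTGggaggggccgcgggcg
EIF3F, chr11:7987253-7987290, plus strand: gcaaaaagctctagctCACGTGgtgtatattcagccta
EIF4B, chr12:53006418-53006455, plus strand: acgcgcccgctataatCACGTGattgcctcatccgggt
The motif begins 54, 68 and 22 bases before the start in these genes. Of 9 tested members with an E-box 6 lay above 0 and 3 were called higher, and of 19 without one 10 lay above 0 and 1 was called higher. Outside the initiation factors, 5.75% of 504 genes with an E-box and 6.36% of those without were called higher.

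At 6 h, 1 treated and 1 mock array allow no test, so the values are a description of these arrays. Of the 43 members 42 were above the signal limit of 148, the exception being EIF1AY. EIF5A, which helps the ribosome past stalling sequences, and EIF1 were at least 1.5-fold higher on the treated array, and none was that much lower. Over all 11108 probe sets kept, 8.76% passed 1.5-fold, 3.32% higher and 5.44% lower. Of the members 30 lay above 0 and 12 below, with a median log2 ratio of 0.16, beside 45.6% above 0 and a median of -0.03 over all.

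EIF5A read 11259 with 8-oxoguanine and 7328 with mock treatment, or 0.62 as a log2 ratio. EIF1 read 13302 and 8809, a ratio of 0.59, just inside the 1.5-fold limit, and EIF3L, a scaffold subunit of eIF3 at 6200 and 4207, was just outside it at 0.56. These are bright probe sets, and on these arrays the ratio moved with the signal. The median ratio over all probe sets was -0.08 below a signal of 1000, 0.00076 from 1000 to 4000, 0.33 from 4000 to 8000 and 0.75 from 8000 up. In the same bands the medians of the members were 0.16, 0.06, 0.35 and 0.61, from 10, 24, 6 and 2 genes. The part of signal in the members' 6 h median was not tested. The highest signal on any probe set was 22762 with 8-oxoguanine and 10699 with mock treatment.

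Quantile normalization gives both arrays the same distribution. On the brightest probe sets it turned EIF1 to -0.23, EIF5A to -0.05 and EIF4G2 from 0.23 to -0.34, and lowered EIF3L to 0.34. The other EIF1 probe sets above the limit were then at 0.15, 0.12, 0.16, 0.16 and -0.31. Those of EIF5A stayed above 0, at 0.35 and 0.32. Quantile normalization left 27 of 42 members above 0, with a median of 0.08 beside 0.02 over all. Centring each array on its median gave 34 above 0 and a median of 0.28.

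**Figure D4:**
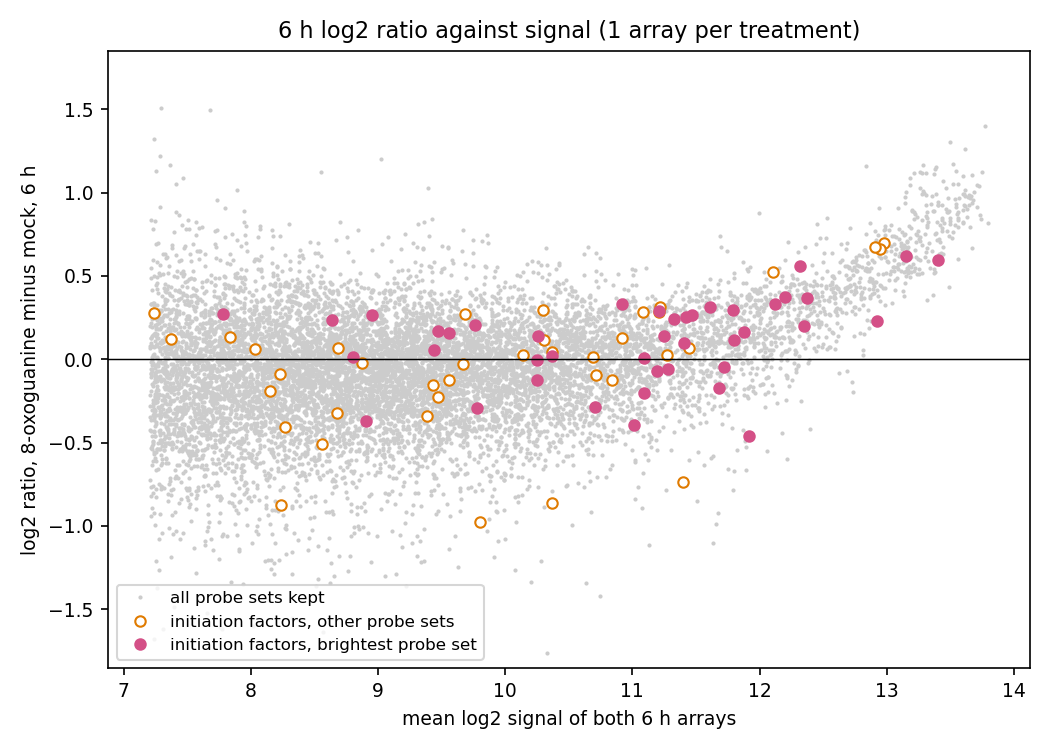
Log2 ratio, 8-oxoguanine minus mock, on the 6 h arrays against the mean log2 signal of both, for all 11108 probe sets kept (grey) and those of the initiation factors (filled: brightest of a gene). The grey cloud bends upward at high signal, and EIF5A at 0.62 and EIF1 at 0.59 lie on the bend.

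The other high members at 6 h were EIF2S2 and EIF3F, both at 0.37, and EIF3G at 0.33. After quantile normalization these were 0.18, 0.09 and 0.35. The lowest was EIF3M, with 3293 in treated and 4539 in mock cells, a ratio of -0.46. Its second probe set above the limit read 2091 and 3486, a ratio of -0.74, so both were lower on the treated array. Then came EIF1B at -0.39, with 1802 against 2364, EIF2AK3 at -0.37, with 423 against 547, and EIF2AK2 at -0.29. EIF3J was at -0.28 and EIF4E at -0.20. All 6 stayed below 0 after quantile normalization, at -0.20 to -0.61.

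EIF4E, too dim to test at 12 h, had 3 probe sets above the limit at 6 h, with ratios of -0.20, -0.97 and -0.19. The last of these, the only one at 12 h, was the dimmest at 6 h. It read 266 in treated and 304 in mock cells, against 2032 and 2339 for the brightest. Among the 19 members with more than 1 probe set above the limit, 7 had ratios on both sides of 0, 7 were above 0 in each and 5 below in each. The widest range within a gene was 1.11, for EIF1. By group, the medians at 6 h were 0.04 for the 12 eIF2 genes, 0.23 for the 12 eIF3 genes and 0.20 for the 10 eIF4 genes. After quantile normalization they were 0.13, 0.08 and 0.10. All 5 eIF2B subunits lay above 0, from 0.01 to 0.20, and all 3 EIF4E-binding proteins, from 0.24 to 0.29. After quantile normalization both groups stayed above 0, from 0.08 to 0.29 and from 0.29 to 0.37.

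Between the times, 36 member probe sets were above the limit on both array types, and 23 of them (63.9%) had the same sign at 6 h and 12 h. Over all 4446 such probe sets the share was 45.5%. Of the 23, 19 were higher at both times and 4 lower at both, and most members lay above 0 at each time. The part of this in the share was not tested. With quantile normalization at 6 h, 19 of the 36 member probe sets kept the sign of the 12 h value. The share over all probe sets was not counted for that scaling. Of the 7 called members, EIF3F, EIF3H, EIF4B and EIF5 lay above 0 at both times and EIF2AK3 below 0 at both, under both scalings at 6 h. EIF5 was near 0 at 6 h, at 0.02 and, after quantile normalization, at 0.0085. Other probe sets above the limit at 6 h differed in sign. Before quantile normalization those of EIF4B were at -0.09 and -0.09, and those of EIF5 at 0.33, 0.13 and -0.12. EIF3E was at 0.20 at 6 h and at -0.07 after quantile normalization. EIF1B was 1 of 4 member probe sets higher at 12 h and lower at 6 h, and 9 went the other way. The others of the 4 were EIF3M, EIF1AX and EIF3A, none of which passed at 12 h. On the same probe set at 12 h and 6 h, EIF3M was at 0.30 and -0.74, EIF1AX at 0.16 and -0.34, and EIF3A at 0.34 and -0.05. Time, array type and experiment cannot be told apart.

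**Figure D5:**
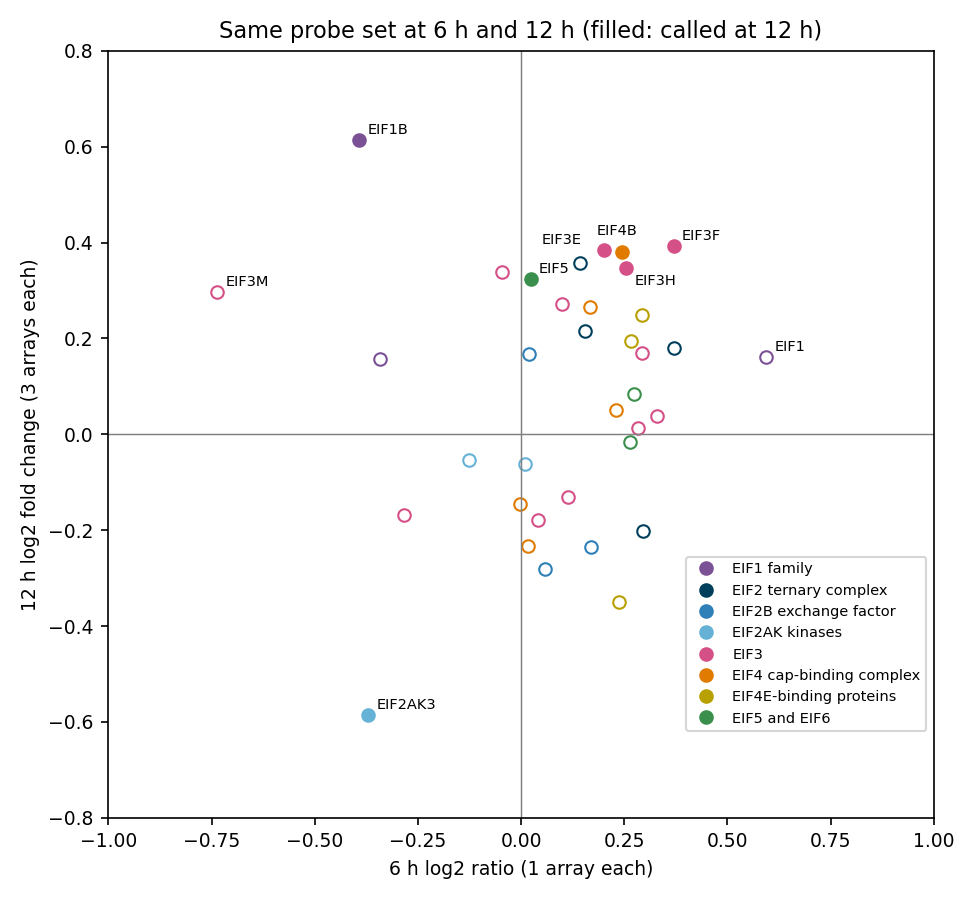
Log2 fold change at 12 h (3 arrays per group) against the log2 ratio at 6 h (1 array per group) for the 36 member probe sets above the limit at both times, coloured by group and filled where called at 12 h. EIF3F, EIF3H, EIF4B, EIF3E and EIF5 lie above 0 on both axes, EIF2AK3 below 0 on both, and EIF1B at -0.39 and 0.61.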

How the data were processed

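Total RNA was labelled as biotinylated cRNA and hybridised to single-colour arrays of 8746 (12 h) and 22215 (6 h) probe sets. The deposited values are linear intensities (signals), 1 for each probe set and array. Per the submitters' processing notes the authors used MAS5, whose version is not given in the sources used here. Genes were named through the platform annotation; 3 (12 h) and 12 (6 h) probe sets with an EIF symbol among several were left out. Signals were used as log2. The filter retained probe sets whose mean log2 signal reached the 40th percentile (12 h, 5248 tested) or the 50th (6 h, 11108 kept). At 12 h, limma 3.58.1 (R 4.3.3) tested treated against mock arrays (eBayes with an intensity trend, two-sided, Benjamini-Hochberg over all probe sets), checked on simulated data. Array number limits the precision. Genes named are the called members, those highest and lowest in each group at 12 h, the 6 highest and 6 lowest at 6 h, and the listed genes that passed; others were named after their values were seen. Members and lists were chosen with earlier results of these data known. Alternatives were scaling, the filter, an added constant, all probe sets of a gene, no trend, a block on the extract number, and leaving out each array. Promoter motifs were letter matches.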

Additional observations from a re-analysis of the deposited data

Results flagged for a closer look

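EIF1B moved in opposite directions at the 2 times on the same probe set: it was higher at 12 h by 0.61 on the log2 scale, on all 3 treated arrays, and lower at 6 h at -0.39, on 1 array of each treatment. This difference was not tested, and time and array type cannot be told apart. Of the 36 member probe sets above the limit at both times, 4 went this way and 9 the other way. Over all 4446 such probe sets, 45.5% had the same sign at both times.

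Among the probe sets set aside because the annotation gives them several symbols, 1 of 3 rose at 12 h. It carries 6 symbols, among them an initiation factor. Its signals were 5952, 5368 and 5783 with 8-oxoguanine and 4665, 4702 and 4737 with mock treatment, without overlap, at 0.28 ± 0.067 on the log2 scale (SE; limma adjusted p = 0.024). The call was lost in 5 of 13 alternatives, with adjusted p from 0.013 to 0.12 in limma. Groups of 3 arrays were not searched for outlying arrays.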

How the results depend on the processing

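At 12 h, 14 alternatives were run, and 30 of the 35 tested members kept their sign in each. The count of 7 called members became 4 with a replicate block on the extract number, 5 without the filter or without the intensity trend, 9 with the stricter filter (all higher, EIF2S3, EIF3A and EIF4EBP1 among them), and 4 to 8 when 1 array was left out. The count of lower members, 1, became 0 without the filter on dim probe sets, with the stricter filter (which leaves EIF2AK3 out), with the block, and 0 to 1 when 1 array was left out. At an unadjusted p under 0.05, limma gave 4 lower members. The labels do not say whether equal extract numbers pair the arrays, and the values gave no sign of it. Deviations of same-numbered arrays correlated at 0.08, -0.15 and -0.05, and 1 of 6 arrays was closest to its own number. With so few arrays this cannot settle whether they are paired. With the block EIF5 (adjusted p = 0.051), EIF3H (0.056), EIF2AK3 (0.079) and PAIP1 (0.095) were no longer called in limma. Without the intensity trend EIF5 (0.060), EIF3H (0.11) and ATF4 (0.058) were not called, and without the filter EIF3H (0.079), EIF2AK3 (0.087) and PAIP1 (0.078) were not. When 1 array was left out, the median of eIF2 ranged from -0.11 to -0.01, that of eIF3 from 0.11 to 0.21 and that of eIF4 from 0.03 to 0.16. When 1 array was left out, EIF2AK2 ran from -0.16 to 0.060, above 0 without treated array 3, and EIF6 from -0.074 to 0.024, above 0 without treated array 1 (0.0040) or 2. At 6 h, the count of members past 1.5-fold went from 2 to 1 (EIF3M, lower) with quantile normalization, and median centring gave 3, adding EIF3L. Median centring moved the 6 h medians of eIF2, eIF3 and eIF4 to 0.15, 0.34 and 0.31, and quantile normalization moved that of eIF3 to 0.082. Averaging all probe sets of a gene at 6 h left 0 members 1.5-fold higher, EIF1 and EIF5A included, and put EIF3F and EIF3M past 1.5-fold lower, EIF3F through a second probe set at signals of 2.41 and 10.3. The causes of these shifts were not tested. With 1 array per treatment, 6 h values have no replicate check.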
